A study of Mus musculus with 12 samples.

Results

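The comparison described here is the difference between the response of CD4 T cells to retinoic acid (RA) when they carried the label RARα TG and when they were wild type (WT). For each gene it is the change from 0 to 10 nM RA in TG cells minus the same change in WT cells, on the log2(FPKM + 1) scale. The genes followed were those that reached an FPKM of 1 in 2 or more of the 12 libraries, 11922 of the 52635 genes in the deposited table. The assay was bulk RNA-seq of naive CD4 T cells from C57BL/6 mice, cultured for 24 h in medium with charcoal-stripped serum. Every culture, the controls included, received anti-CD3 and anti-CD28 together with IL-6, IL-1β, IL-21, IL-23, TNFα and TGF-β1 and antibodies that block IFNγ and IL-4. The 4 groups compared were WT without RA, WT with 10 nM RA, TG without RA and TG with 10 nM RA, with 2 libraries each. Cells labelled RARα KO, also with 2 libraries at each dose, entered only the estimate of the spread and a side reading. The construct, promoter or allele behind the TG and KO labels is not given in the sources used here, and the labels do not say whether replicates came from separate animals, so the p-values measure the spread between these libraries.

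RARα is a nuclear receptor for all-trans RA that sits on DNA as a heterodimer with a retinoid X receptor. Without ligand such heterodimers can hold corepressors at a gene, and binding of RA exchanges these for coactivators, so that the amount of receptor may in principle matter both before and after ligand is added. In CD4 T cells RA is known to favour Foxp3 and gut-homing receptors and to restrain Th17 cytokines under TGF-β. A difference of responses can be written exactly as TG minus WT with RA, minus TG minus WT without RA, and each gene is described below by these 2 ends.

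Depth recovered from the FPKM steps was 16289891 to 25534468 reads per library. Libraries of 1 group correlated with r of 0.981 to 0.987 over the tested genes. CD4 T-cell markers summed to 996 to 1480 FPKM in each library, and CD8 markers to 1.55 to 4.18 FPKM. WT replicate 2 stood apart in class II and dendritic markers, with summed levels of 157 and 166 FPKM at 0 and 10 nM against 24.1 and 26.3 FPKM in WT replicate 1, 28.1 and 44.8 FPKM in TG libraries without RA and 35.4 and 46.6 FPKM in TG libraries with RA. KO-labelled replicate 2 had 73.9 and 78.9 FPKM at 0 and 10 nM, and KO-labelled replicate 1 had 26.7 and 25.8 FPKM. Xist and Y-linked genes marked all WT libraries and TG replicate 1 as male, TG replicate 2 as female at both doses and all 4 libraries labelled KO as female, so that sex and the KO label cannot be told apart in any comparison of KO-labelled with WT libraries. On the difference of responses, none of 6 class II and none of 10 B-cell markers tested was called in the main limma fit. Voom on recovered reads called none either, and 1 and 0 had an unadjusted limma p under 0.05. The B-cell marker Ighm was called with a replicate block within genotype. Only an excess in the same proportion at both doses of a replicate cancels in this difference of log2 values. An equal FPKM added at both doses does not cancel, and its part in the result was not tested. These tests do not bear on TG minus WT at a single dose.

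TG cells answered RA more strongly than WT cells in both directions. The response differed in 892 genes, 7.48% of those tested (limma, Benjamini-Hochberg adjusted p under 0.05). In 566 genes (4.75%) the TG response lay above the WT response, and in 326 (2.73%) it lay below. The difference was at least 1 on the log2 scale, which is a 2-fold change of FPKM + 1, in 210 of the former and 73 of the latter. All 892 had 4 TG responses that did not overlap the 4 WT responses, which held for 36.3% of all tested genes, and the sign was the same within replicate 1 and within replicate 2 for each of them. The 892 became 469 to 512 without WT 0 nM replicate 1 or 2, TG 0 nM replicate 2, TG 10 nM replicate 1 or TG 10 nM replicate 2, and 574 without WT 10 nM replicate 2. All 892 kept their sign in each of these fits. With each of the 8 WT and TG libraries left out in turn, 277 of the 566 and 93 of the 326 stayed called in all 8 fits.

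The RA response of the WT cells was mostly present in TG cells as well, and often larger there. RA changed 1209 genes in WT cells (10.1%; 6.67% up and 3.47% down) and 4662 in TG cells (39.1%; 19.7% up and 19.4% down). Of the 566 genes above, 275 were called in both genotypes in the same direction with the larger change in TG, 285 were called in TG only, and 6 fell in other classes. Of the 326 below, 85 were called in both with the larger fall in TG and 226 in TG only. Among the 892, no gene was called in both genotypes with the same direction and a smaller change in TG. Of the 795 genes that rose in WT, 781 had the same sign in TG and 634 lay further from 0 there, with median changes of 0.48 in WT and 0.80 in TG. Of the 414 that fell in WT, 407 had the same sign in TG and 353 lay further from 0, with medians of -0.38 and -0.58. The split of WT calls into rises and falls depended on scaling, since upper-quartile scaling gave 667 and 554.

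**Figure D1:**
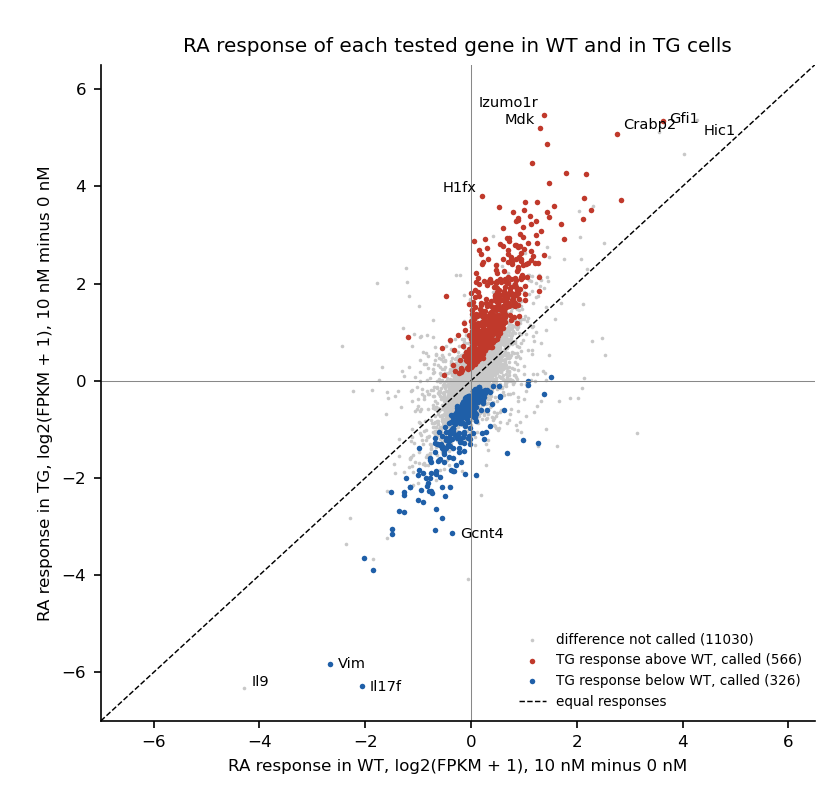
Each point is a tested gene, with its RA response (10 nM minus 0 nM, log2(FPKM + 1), mean of 2 libraries per group) in WT on the x axis and in TG on the y axis. The 566 genes in red and the 326 in blue are those whose responses differed, and the dashed line marks equal responses. Most coloured points with a WT response away from 0 lie further from 0 on the TG axis.

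More of the genes that differed in response parted from WT with RA than without it. Among the 566 genes with the higher TG response, 389 (68.7%) had TG apart from WT only at 10 nM, 59 (10.4%) only at 0 nM, 58 (10.2%) at both doses with opposite signs, 7 (1.24%) at both with the same sign, and 53 (9.36%) at neither. Among the 326 with the lower TG response the same classes held 147 (45.1%), 79 (24.2%), 28 (8.59%), 4 (1.23%) and 68 (20.9%). Some of these genes reached the FPKM minimum through 1 group alone, so they had to be high there and their class is partly fixed. Without such genes the classes over both directions held 446, 123, 85, 11 and 93 genes in the same order. With them the counts were 536, 138, 86, 11 and 121. Over all tested genes TG differed from WT in 514 (4.31%; 2.25% above and 2.06% below) without RA and in 1369 (11.5%; 6.84% above and 4.64% below) with RA. The medians of the 566 were -0.16 for TG minus WT without RA and 0.56 with RA, and those of the 326 were 0.24 and -0.28. Over all 11922 genes these medians were 0.01 and -0.02.

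Over all genes called on the difference, the 2 ends mostly lay on opposite sides of WT by sign. By sign alone, 455 of the 566 genes with the higher response lay below WT without RA, and 553 lay above WT with RA. Of the 326 with the lower response, 298 lay above WT without RA and 308 below WT with RA. These shares describe genes chosen by the difference itself and are no test. When the classes were drawn by size, with a gene put to the treated level where that end made up at least 0.75 of the difference without much overshoot, 335 genes fell to the treated level, 95 to the untreated level and 425 to both ends. By this measure 47.9% of the 566 lay at the treated level, 6.89% at the untreated level and 40.8% at both ends, and 19.6%, 17.2% and 59.5% of the 326. The class counts were sensitive to the libraries and the model. With a sex term, 76 genes were called at 0 nM only, 37 at opposite ends and 193 at neither, against 138, 86 and 121.

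**Figure D2:**
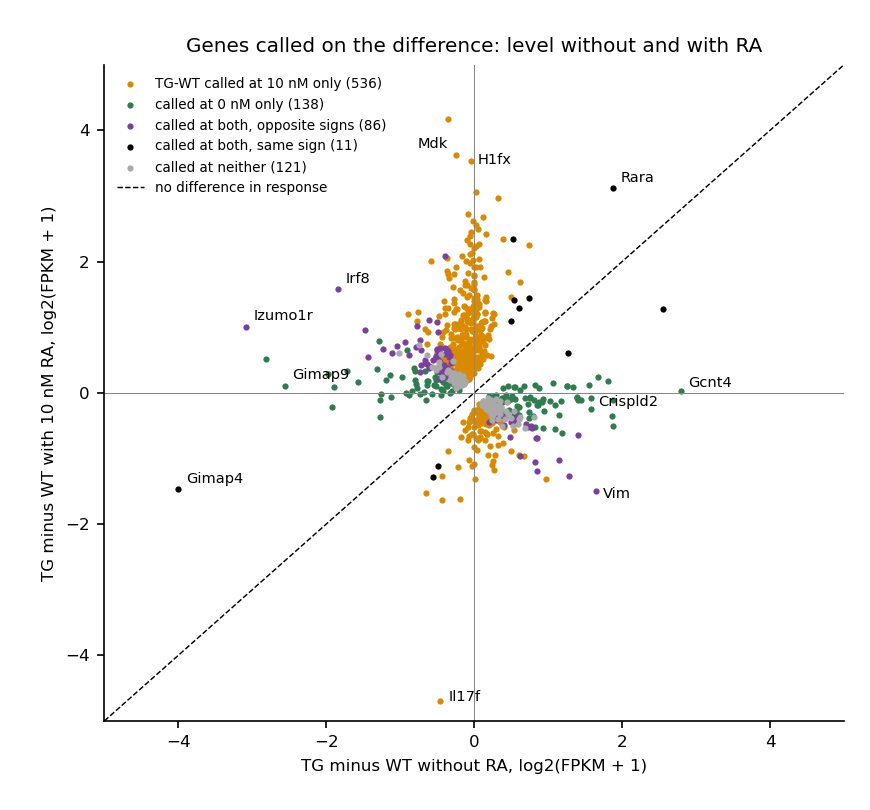
Each point is 1 of the 892 genes called on the difference of responses, with TG minus WT without RA on the x axis and with 10 nM RA on the y axis (log2(FPKM + 1)). Colours give the end or ends at which TG differed from WT. The 536 genes called at 10 nM only form the vertical band, the 138 called at 0 nM only the horizontal one, and the 86 called at opposite ends fill the upper left and lower right.

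Rara, the receptor gene itself, was 1 of 5 genes whose RA response was called in both genotypes with opposite signs. Rara stood at 16.5 and 18.9 FPKM in WT cells without RA, 12.3 and 14.2 in WT cells with RA, 72.8 and 63.3 in TG cells without RA and 126 and 119 in TG cells with RA. TG libraries were above WT libraries at both doses with no overlap, a property that 48.1% of all tested genes had without RA and 54.4% with RA in either direction. Rara fell in WT (log2 -0.39 ± 0.09, adjusted p = 0.031) and rose in TG (0.85 ± 0.09, adjusted p = 0.00016), a difference of 1.24 ± 0.13 (SE, adjusted p = 0.00093). TG exceeded WT by 1.88 without RA and by 3.12 with RA. Untreated libraries labelled KO had 19.5 and 19.3 FPKM and treated ones 16.8 and 17.6, so reads over the whole gene did not mark them as lacking Rara. In the table, reads from a transgene and from the native gene cannot be told apart.

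Of the other retinoid receptors tested, none was called on the difference in the main limma fit. Rarg, a second RA receptor, fell in WT from 4.09 and 3.96 to 2.32 and 2.36 FPKM and was 6.62 and 5.9 and then 6.2 and 5.99 FPKM in TG, a difference of 0.56 ± 0.21 (adjusted p = 0.17). Rxra, a heterodimer partner, had a difference of -0.63 ± 0.18 (adjusted p = 0.078) and Rxrb one of -0.14 ± 0.08 (adjusted p = 0.4). Rarg was called with only the 8 WT and TG libraries and with a replicate block within genotype. Rxra was called with a replicate block and without TG 0 nM replicate 1.

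Genes that RA is known to induce were described by a list of 16 tested members. The TG response was the larger in 8 of them and the smaller in none (4.75% and 2.73% of all tested genes), and 7 of the 8 differed from WT at the treated end only. Cyp26b1 reached the FPKM minimum through treated TG libraries alone and so had to be high there, and without members that passed in this way 6 are left. Of the 8 calls, 5 held whichever of the 8 libraries was left out, that of Cyp26b1 among them. The median difference over the 16 was 1.16, against -0.03 over all tested genes, and the medians of TG minus WT were -0.03 without RA and 1.03 with RA. Crabp2 encodes a cellular RA-binding protein that delivers ligand to the receptor. Its levels were 5.03 and 3.46 FPKM in WT cells without RA, 36.5 and 31.7 in WT cells with RA, 4.1 and 3.85 in TG cells without RA and 196 and 143 in TG cells with RA. Untreated levels overlapped, and both treated TG libraries exceeded both treated WT libraries. Crabp2 rose by 2.76 in WT and 5.08 in TG, a difference of 2.33 ± 0.34 (adjusted p = 0.0049).

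Cyp26b1, whose product degrades RA, was close to 0 everywhere except in treated TG cells. It had 0.0551 and 0.0229 FPKM in treated WT libraries and 2.71 and 1.57 FPKM in treated TG libraries, from 2 to 5 reads in the former and 213 to 244 in the latter. The difference was 1.57 ± 0.25, given as a description since the gene was tested only because treated TG libraries were high. Dhrs3, which reduces retinaldehyde, rose from 0 and 0.251 to 0.946 and 1.32 FPKM in WT and from 0.0173 and 0.0268 to 6.61 and 5.36 FPKM in TG (difference 1.84 ± 0.22, adjusted p = 0.0018). Among 9 tested genes of retinoid uptake, binding and metabolism, Crabp2 and Dhrs3 were the other members called besides Cyp26b1. Ccr9, the receptor that directs T cells to the small intestine, had at most 0.011 FPKM without RA in WT and TG. With RA it had 2.7 and 1.41 FPKM in WT and 11.3 and 10.9 FPKM in TG, a difference of 2.03 ± 0.24 (adjusted p = 0.0021). With limma voom on recovered reads, Cyp26b1, Dhrs3 and Ccr9 were not called (adjusted p = 0.087, 0.32 and 0.22), and Cyp26b1 and Dhrs3 were not called with a pseudocount of 0.1. Asb2, a substrate adaptor of a ubiquitin ligase, had 1.4 and 1.96 FPKM in treated WT and 6.82 and 7.88 FPKM in treated TG (difference 1.78 ± 0.23, adjusted p = 0.0027).

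Tgm2, the RA-induced transglutaminase, showed the other pattern. Tgm2 was at 8.75 and 10.0 FPKM in WT cells without RA, 43.2 and 56.1 in WT cells with RA, 3.23 and 3.46 in TG cells without RA and 49.9 and 47.4 in TG cells with RA. Treated levels overlapped between the genotypes, while untreated TG libraries were the lowest. The difference of responses was 1.24 ± 0.22 (adjusted p = 0.012), made of -1.25 ± 0.15 without RA and -0.02 ± 0.15 with RA. The call was lost, with an adjusted p of 0.051 in each case, without TG 10 nM replicate 1 or without WT 0 nM replicate 2. Gfi1, a transcriptional repressor, rose in WT from 2.84 and 1.93 to 40.6 and 40.6 FPKM and in TG from 1.08 and 0.492 to 69.4 and 71.6 FPKM, and TG was called below WT without RA (-0.93) and above it with RA (0.78).

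Several strongly induced genes had no called difference in the main limma fit. Hic1, a repressor induced by RA in T cells, rose from 0.319 and 0.497 to 28.2 and 24.5 FPKM in WT and from 0.243 and 0.136 to 45 and 51.1 FPKM in TG (difference 1.09 ± 0.35, adjusted p = 0.11). Itga4, the α4 subunit of the gut-homing integrin, rose by 4.04 in WT and 4.66 in TG (difference 0.63 ± 0.21, adjusted p = 0.12). Stra6, a retinol transporter, rose by 3.55 and 5.12 (difference 1.58 ± 0.49, adjusted p = 0.1). Hic1 and Stra6 were called when only the 8 WT and TG libraries were fitted, and Stra6 also with the replicate number as a block. A difference that misses the threshold does not show that the responses were equal. In data simulated for this comparison over 11537 genes, 1 of 67 genes changed by 1.5-fold was called, 16 of 67 changed by 2-fold and 66 of 66 changed by 4-fold. The simulation gave all genes 1 fixed dispersion and changed few of them, drawn from genes with a mean FPKM of at least 2. Its rates are therefore no detection limit for these data, in which the median difference of the 326 genes called lower was -0.56.

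Mdk and H1fx were among the largest rises at the treated end. Mdk encodes midkine, a heparin-binding growth factor. Mdk was at 1.41 and 1.49 FPKM in WT cells without RA, 4.72 and 5.42 in WT cells with RA, 1.11 and 1.01 in TG cells without RA and 82.2 and 66.7 in TG cells with RA. The treated TG libraries stood far above all other libraries, and the untreated groups were low in both genotypes. Mdk rose by 1.31 in WT and 5.19 in TG, a difference of 3.88 ± 0.17 (adjusted p = 2.2e-05).

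H1fx, a linker histone variant, had at most 0.555 FPKM in the 4 WT libraries and the 2 untreated TG libraries, and 13.7 and 18.2 FPKM in treated TG cells (difference 3.59 ± 0.36, adjusted p = 0.00078). Of these libraries only the treated TG ones reached the FPKM minimum. H1fx is not among the genes set apart below because a library labelled KO reached it as well. Eya2, a transcriptional coactivator with phosphatase activity, was listed at 0 in both untreated TG libraries, stayed at or under 0.124 FPKM in WT, and had 6.69 and 5.9 FPKM in treated TG cells (difference 2.81 ± 0.16). In neither gene was the WT response itself called (adjusted p = 0.67 and 0.82). Hrh3, a histamine receptor, had 0.337 and 0.546 FPKM in treated WT and 9.14 and 13.3 FPKM in treated TG cells, and Rem2, a small GTPase, 0.367 and 0.327 and 7.01 and 7.59 FPKM. Trat1, an adaptor of the T-cell receptor, had 6.98 and 4.31 FPKM in treated WT and 63.7 and 39.4 FPKM in treated TG cells, a difference of 2.65 ± 0.43 (adjusted p = 0.0082). In all of these the 2 treated TG libraries were the highest of the 8.

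The filter bears on this group. Of the tested genes, 95 reached the FPKM minimum through treated TG libraries alone, Eya2, Hrh3 and Rem2 among them, and 66 of these were called higher. Another 33 reached it through untreated TG libraries alone, and 11 of these were called lower. A gene that passed in this way had to be high there, so these 66 and 11 are not counted as support. With the genes that passed through 1 group alone left out of the fit, 758 genes were called, 471 higher and 287 lower.

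Il17f had the largest fall, and it lay at the treated end. Il17f encodes a cytokine of the IL-17 family that Th17 cells release. Il17f was at 412 and 554 FPKM in WT cells without RA, 98.6 and 131 in WT cells with RA, 307 and 389 in TG cells without RA and 2.97 and 3.97 in TG cells with RA. Untreated TG libraries were lower than untreated WT libraries, but that difference was not called (-0.47 ± 0.22, adjusted p = 0.29). The treated TG libraries were the lowest of the 8. RA lowered Il17f by -2.06 in WT and -6.29 in TG, a difference of -4.23 ± 0.31 (adjusted p = 0.00016), and TG minus WT with RA was -4.69 ± 0.22. In libraries labelled KO, Il17f was 269 and 369.9 FPKM without RA and 147 and 149.9 FPKM with RA.

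The Th17 list held 25 tested genes, of which 8 had the lower TG response and 2 the higher, against 2.73% lower and 4.75% higher over all tested genes. Il23r, 1 of the 8, reached the FPKM minimum through untreated TG libraries alone, and 3 of the lower and 1 of the higher calls held whichever of the 8 libraries was left out. The median difference of the list was -0.33, with medians of -0.05 for TG minus WT without RA and -0.14 with RA, and 9 of the 10 called genes differed at the treated end only. Ahr, a ligand-activated transcription factor of Th17 cells, fell in TG from 34.5 and 33.6 to 12.3 and 14.9 FPKM and was 35.7 and 33.9 and then 31.6 and 29.1 FPKM in WT (difference -1.08 ± 0.13, adjusted p = 0.0021). Only the treated TG libraries were low.

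Il17a, the other main cytokine of the lineage, had no called response in WT (-0.01, adjusted p = 0.98) and fell in TG (-1.21, adjusted p = 0.0016). It was at 7.98 and 10.0 FPKM and then 7.35 and 10.6 FPKM in WT, and at 6.14 and 6.59 and then 1.98 and 2.42 FPKM in TG. The difference was -1.19 ± 0.28 (adjusted p = 0.038). This call did not hold when a library was left out, with adjusted p from 0.061 to 0.13 without any of 7 of the 8 libraries, all but WT 10 nM replicate 1. Il21 fell by -0.43 in WT and -0.56 in TG with a difference of -0.14 ± 0.09 (adjusted p = 0.45). Il22 was at 11 and 23.3 FPKM in untreated TG and 2.44 and 8.6 FPKM in untreated WT cells, wide apart within each group, and its difference of -1.82 ± 0.71 was not called (adjusted p = 0.18). Basp1, the member with the largest higher response, rose from 2.38 and 2.81 to 3.99 and 5.75 FPKM in WT and from 1.7 and 2.18 to 15.7 and 18 FPKM in TG (difference 1.91 ± 0.24, adjusted p = 0.0025).

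**Figure D3:**
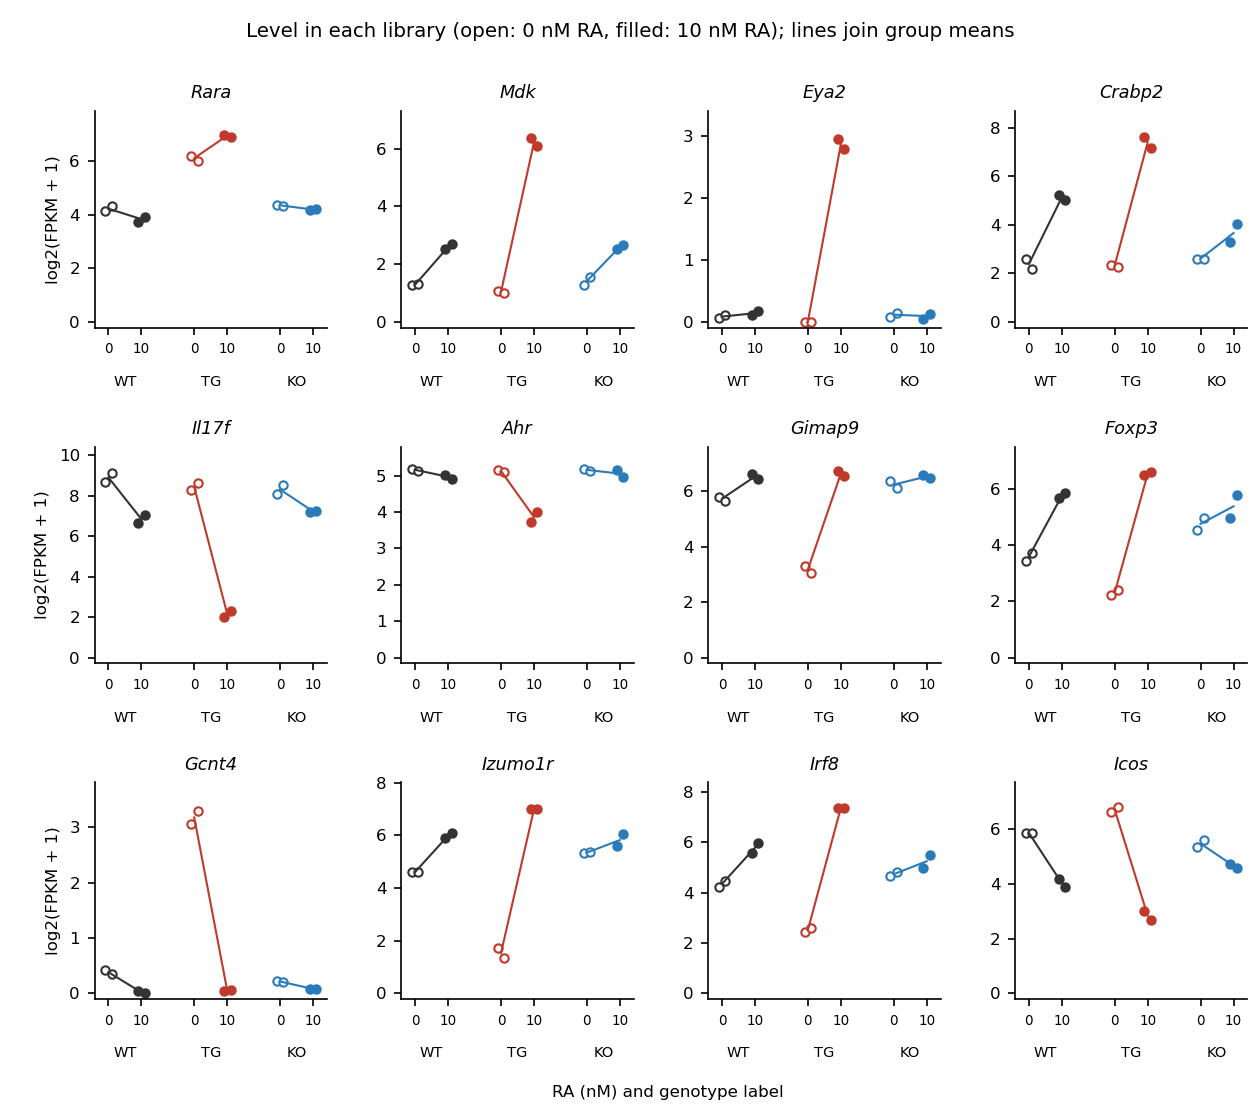
Level of 12 genes in each library on the log2(FPKM + 1) scale, with WT, TG and KO labels side by side, open symbols for 0 nM and filled symbols for 10 nM RA, and lines joining group means of 2 libraries. Mdk, Eya2, Crabp2, Il17f and Ahr part at 10 nM, Gimap9, Foxp3 and Gcnt4 at 0 nM, and Izumo1r, Irf8 and Icos at both. Eya2 reached the FPKM minimum through treated TG libraries alone and Gcnt4 through untreated TG libraries alone, so each had to be high there.

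Of 20 regulatory T-cell genes tested, 8 had the higher TG response, 1 the lower and 11 were not called, against 4.75% higher and 2.73% lower over all tested genes. The median difference was 0.26, and 5 of the higher calls and the lower one held whichever of the 8 libraries was left out. Foxp3, the factor that defines regulatory T cells, rose in both genotypes. Foxp3 was at 9.95 and 12.3 FPKM in WT cells without RA, 50.4 and 57.1 in WT cells with RA, 3.66 and 4.29 in TG cells without RA and 89.4 and 97.2 in TG cells with RA. Untreated TG libraries were the lowest and treated TG libraries the highest of the 8. Foxp3 rose by 2.18 in WT and 4.25 in TG, a difference of 2.07 ± 0.35 (adjusted p = 0.01). TG was called below WT without RA (-1.28 ± 0.25, adjusted p = 0.028), while the excess with RA was not called (0.79 ± 0.25, adjusted p = 0.083). In bulk RNA, a change in the share of cells that express a gene and a change in the level per cell cannot be told apart.

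Tnfrsf9 (4-1BB), a costimulatory receptor of activated and regulatory T cells, was at 8.33 and 10.1 FPKM in treated WT and 38.2 and 31.9 FPKM in treated TG cells (difference 2.17 ± 0.20, adjusted p = 0.0005). Tigit, a coinhibitory receptor, was 4.46 and 5.28 FPKM and then 2.63 and 3.89 FPKM in WT and rose in TG from 4.05 and 3.05 to 15.7 and 12.9 FPKM (difference 2.23 ± 0.29, adjusted p = 0.0028). Both differed from WT at the treated end only. Nrp1, a coreceptor found on regulatory T cells, had a difference of 1.64 ± 0.18 (adjusted p = 0.0012), and Gpr83 one of 2.06 ± 0.40 (adjusted p = 0.019). The Gpr83 call was lost without TG 0 nM replicate 2, either treated TG library, WT 0 nM replicate 2 or WT 10 nM replicate 1, with adjusted p up to 0.072. Tnfrsf18 (GITR) went the other way, falling in TG from 26.4 and 26.4 to 20.2 and 19.6 FPKM (difference -0.46 ± 0.06, adjusted p = 0.0042). Lrrc32 and Itgae were also called higher, calls lost without any of 5 and of 6 libraries (adjusted p up to 0.062 and 0.078). The ectoenzymes Nt5e and Entpd1 were not called (-0.53 ± 0.26, adjusted p = 0.29, and -0.60 ± 0.15, adjusted p = 0.051). Entpd1 was called in 6 alternative fits, voom on recovered reads among them, and Nt5e in 1, the replicate block within genotype.

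Izumo1r had the largest rise among the named genes and parted at both ends. Izumo1r encodes a folate receptor family protein, often used as a surface marker of regulatory T cells. Izumo1r was at 23.6 and 23.3 FPKM in WT cells without RA, 59 and 66.5 in WT cells with RA, 2.27 and 1.55 in TG cells without RA and 127 and 127 in TG cells with RA. Untreated TG libraries were the lowest and treated TG libraries the highest, with no overlap at either dose. RA raised it by 1.38 in WT and 5.47 in TG, a difference of 4.09 ± 0.21 (adjusted p = 3.7e-05). TG minus WT was -3.08 ± 0.15 without RA (adjusted p = 3.1e-05) and 1.01 ± 0.15 with RA (adjusted p = 0.0038).

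Irf8, an interferon regulatory factor, followed the same course. Its values were 17.6 and 21.4 FPKM in WT cells without RA, 47.3 and 62.8 in WT cells with RA, 4.38 and 5.05 in TG cells without RA and 165 and 165 in TG cells with RA. The order of the groups was that of Izumo1r. The difference was 3.42 ± 0.27 (adjusted p = 0.00024), from -1.84 without RA and 1.58 with RA. Of the 8 interferon regulatory factors tested, Irf8 was the 1 with the higher response (4.75% of all tested genes). Irf4 and Irf3 had the lower (2.73% of all tested genes). Irf4, a factor of Th17 differentiation, was 325 and 328 FPKM in treated WT and 249 and 251 FPKM in treated TG cells (difference -0.33 ± 0.06, adjusted p = 0.017). Leaving out any of 6 libraries ended the Irf4 call, with adjusted p from 0.051 to 0.068 (both WT 0 nM, both TG 10 nM, TG 0 nM replicate 2 and WT 10 nM replicate 2). The Irf3 call was lost without any of 6 libraries as well, with adjusted p from 0.066 to 0.095, and held without TG 0 nM replicate 1 or TG 10 nM replicate 1. Rasa3, a Ras GTPase-activating protein, and Chst11, a chondroitin sulfotransferase, were also below WT without RA and above it with RA, with differences of 2.43 ± 0.25 and 2.47 ± 0.10 (adjusted p = 0.00087 and 2.2e-05).

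The reverse course, above WT without RA and below it with RA, was clearest in Vim and Icos. Vim encodes the intermediate filament vimentin. Vim was at 68.9 and 99 FPKM in WT cells without RA, 9.5 and 15.3 in WT cells with RA, 224 and 303 in TG cells without RA and 3.45 and 3.82 in TG cells with RA. The 2 untreated TG libraries were the highest and the 2 treated TG libraries the lowest of the 8. Vim fell by -2.68 in WT and -5.82 in TG, a difference of -3.15 ± 0.43 (adjusted p = 0.004), with 1.65 ± 0.31 without RA and -1.50 ± 0.31 with RA. Icos, a costimulatory receptor, was at 57.9 and 57.5 FPKM and then 17 and 13.8 FPKM in WT, and at 99.4 and 111 and then 7.03 and 5.39 FPKM in TG. Its difference was -2.04 ± 0.20 (adjusted p = 0.00063), from 0.86 without RA and -1.19 with RA. Mgll, a monoglyceride lipase, had no called response in WT (0.10, adjusted p = 0.58) and fell in TG from 15 and 15 to 3.34 and 3.03 FPKM, a difference of -2.04 ± 0.14 (adjusted p = 0.00013). B4galnt4, a glycosyltransferase, had a difference of -1.88 ± 0.10 (adjusted p = 3.7e-05).

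Vimentin, galectin, annexin and S100 genes were 17 in number. Of these, 6 had the lower TG response (2.73% of all tested genes) and none the higher (4.75%). Their median difference was -0.36, and their medians of TG minus WT were 0.46 without RA and -0.10 with RA. Lgals3, a galectin, was 1.86 and 1.43 FPKM and then 0.317 and 1.12 FPKM in WT and fell in TG from 8.15 and 9.21 to 0.609 and 0.508 FPKM (difference -1.98 ± 0.28, adjusted p = 0.0042). Of these 8 libraries only the untreated TG ones were high, and the libraries labelled KO had 8.27 and 9.3 FPKM untreated and 2.56 and 2.69 FPKM treated. Lgals1 was called at both ends, with 0.84 without RA and -0.68 with RA (difference -1.52 ± 0.23, adjusted p = 0.0056). S100a10, Anxa2 and Lmna were the other members called, and 3 of the 6 calls held whichever of the 8 libraries was left out. Macrophage and monocyte markers summed to 4.17 and 6.45 FPKM in untreated TG, 4.11 and 6.02 FPKM in treated TG, 4.05 and 16.0 FPKM in untreated WT and 4.06 and 19.9 FPKM in treated WT libraries, and their part in the result was not tested.

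The Gimap GTPases, a family of lymphocyte proteins tied to T-cell survival, gave the clearest untreated-level pattern. Their 8 tested genes lie on chromosome 6 between positions 48647234 and 48770851 of GRCm38, within 124 kb. TG was called below WT without RA in 8 of 8 (2.06% of all tested genes), by -1.11 to -4.0 on the log2 scale. RA raised 8 of 8 in both genotypes (6.67% of all tested genes in WT and 19.7% in TG), and with RA the difference between the genotypes was -1.47 to 0.55 and was called in 3. The TG response was called larger in 7, with a median over the 8 of 2.12.

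Gimap9 shows this course. Gimap9 was at 54.9 and 49.9 FPKM in WT cells without RA, 97.2 and 87.1 in WT cells with RA, 8.83 and 7.35 in TG cells without RA and 106 and 92.6 in TG cells with RA. Untreated TG libraries were the only low ones, and treated levels overlapped. The difference of 2.66 ± 0.17 (adjusted p = 7.6e-05) was made of -2.56 ± 0.12 without RA and 0.10 ± 0.12 with RA. Gimap3 went from 8.53 and 6.12 to 201 and 167 FPKM in TG and from 61.2 and 53.3 to 137 and 118 FPKM in WT (difference 3.34 ± 0.26, adjusted p = 0.00024). Gimap4 stayed below WT at both doses, at 91 and 49.8 FPKM in treated TG against 203 and 175 FPKM in treated WT cells, and Gimap5 ended above WT (0.55, adjusted p = 0.00093). Gimap7 was the member with no called difference of responses: TG was below WT by -1.11 without RA and -1.16 with RA, and the difference was -0.04 ± 0.31 (adjusted p = 0.96). Libraries labelled KO had 82.4 and 67.9 FPKM of Gimap9 without RA and 96.2 and 88 FPKM with RA.

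Timp1, an inhibitor of matrix metalloproteinases, was another large fall, called at the treated end. Timp1 was at 266 and 324 FPKM in WT cells without RA, 171 and 237 in WT cells with RA, 499 and 665 in TG cells without RA and 73.1 and 89 in TG cells with RA. The treated TG libraries were the lowest of the 8 and the untreated ones the highest. Its difference was -2.28 ± 0.37 (adjusted p = 0.0085), with 0.97 ± 0.26 without RA (adjusted p = 0.083) and -1.31 ± 0.26 with RA (adjusted p = 0.015).

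Gcnt4, a Golgi enzyme that branches O-glycans, and Cxcl10 reached the FPKM minimum through untreated TG libraries alone, so they had to be high there and their differences are descriptions. Gcnt4 was listed at 0.34 and 0.266 FPKM and then 0.0232 and 0 FPKM in WT, and at 7.32 and 8.85 FPKM and then 0.0234 and 0.0464 FPKM in TG. Its difference was -2.76 ± 0.17. Crispld2, a secreted glycoprotein, was 37.8 and 38 FPKM in untreated TG cells and between 6.94 and 13.5 FPKM in the other 6 libraries (difference -1.82 ± 0.30, adjusted p = 0.0082). Cxcl10, a chemokine, was 2.77 and 3.44 FPKM in untreated TG cells and 0.492 and 0.602 FPKM in untreated WT cells (difference -1.52 ± 0.19). Il7r, the IL-7 receptor chain, was 24.6 and 20.2 FPKM in untreated TG and 5.72 and 5.1 FPKM in untreated WT cells, with a difference of -2.21 ± 0.49 (adjusted p = 0.031). Its call was lost without any of 6 of the 8 libraries, with adjusted p from 0.063 to 0.098, and held without TG 10 nM replicate 1 or WT 10 nM replicate 2.

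**Figure D4:**
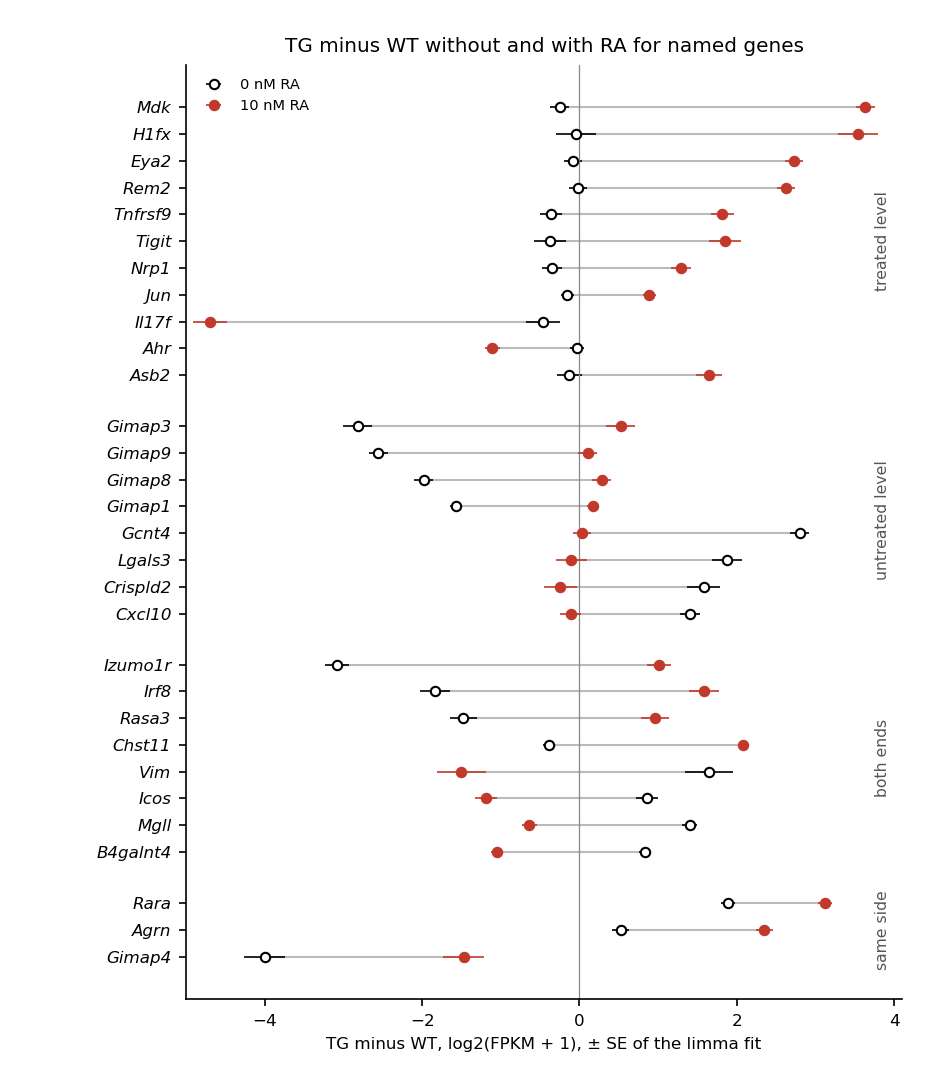
TG minus WT for 30 named genes without RA (open) and with 10 nM RA (red), on the log2(FPKM + 1) scale with the SE of the limma fit, each from 2 libraries per group. The grey line joins both ends, and its length is the difference of responses. Mdk and Il17f were called at the red end only, Gimap9 at the open end only, and Izumo1r and Vim cross 0. Eya2 and Rem2 reached the FPKM minimum through treated TG libraries alone, and Gcnt4 and Cxcl10 through untreated TG libraries alone. These genes had to be high there, so their ends are descriptions.

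Promoters of Izumo1r, Il17f and Gimap9 are printed because these genes carry the both-ends, treated-level and untreated-level patterns. They run from 250 bases before the RefSeq start to 50 after it on GRCm38.p6, at chr9:14903718-14904017 (minus strand), chr1:20784221-20784520 (minus strand) and chr6:48675885-48676184 (plus strand). Capitals mark the nuclear receptor hexamers AGGTCA or AGTTCA, read on either strand.
Izumo1r: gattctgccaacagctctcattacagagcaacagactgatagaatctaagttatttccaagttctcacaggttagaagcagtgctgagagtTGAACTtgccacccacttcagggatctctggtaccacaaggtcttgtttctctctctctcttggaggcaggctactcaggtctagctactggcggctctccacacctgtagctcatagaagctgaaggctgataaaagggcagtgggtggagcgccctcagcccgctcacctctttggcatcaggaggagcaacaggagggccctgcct
Il17f: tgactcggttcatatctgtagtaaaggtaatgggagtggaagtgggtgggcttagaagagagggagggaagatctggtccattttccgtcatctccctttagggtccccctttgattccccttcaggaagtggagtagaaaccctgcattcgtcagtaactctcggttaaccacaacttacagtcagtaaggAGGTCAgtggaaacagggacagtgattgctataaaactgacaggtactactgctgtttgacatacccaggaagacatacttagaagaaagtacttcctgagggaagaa
Gimap9: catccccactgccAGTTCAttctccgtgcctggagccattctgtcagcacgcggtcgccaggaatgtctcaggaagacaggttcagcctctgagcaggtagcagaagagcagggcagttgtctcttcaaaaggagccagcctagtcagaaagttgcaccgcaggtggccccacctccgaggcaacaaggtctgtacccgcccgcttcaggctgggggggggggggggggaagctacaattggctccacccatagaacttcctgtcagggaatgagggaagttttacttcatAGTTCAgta
The hexamers begin at -159 in Izumo1r, at -58 in Il17f and at -237 and 42 in Gimap9, counted from the RefSeq start. At least 1 such hexamer occurs in 27.7% of 32851 RefSeq promoters of this length. Direct repeats were sought with a looser set of hexamers, which also admits GGGTCA and GGTTCA. These added forms are not in capitals above. A direct repeat of this looser set with 5 bases between, the classical RAR element, occurs in 0.0974% of these promoters and in none of the 3 windows. A promoter was found for 8489 of the 11922 tested genes (71.2%), below the 80% needed, so called genes were not compared with the rest.

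A few genes were called at both doses on the same side, as Rara was. Agrn, which encodes the proteoglycan agrin, was 1.92 and 1.77 FPKM in untreated TG and 0.964 and 0.991 FPKM in untreated WT cells, and 11.1 and 10.6 against 1.24 and 1.42 FPKM with RA (difference 1.82 ± 0.15, adjusted p = 0.00031). Il2, by contrast, was below WT at both doses (-1.20 and -0.89) with a difference of 0.30 ± 0.10 that was not called (adjusted p = 0.12). It was called with a replicate block within genotype.

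Receptors and mediators of TGF-β, which was present in every culture, made up a list of 18 tested genes. The TG response was the larger in 8 and the smaller in none, against 4.75% and 2.73% of all tested genes, and the median difference was 0.41. Tgfb3 reached the FPKM minimum through treated TG libraries alone, so it had to be high there, which leaves 7 without it. Whichever of the 8 libraries was left out, 3 of the 8 calls held, that of Tgfb3 among them. Pmepa1, a target that dampens SMAD signalling, was at 49.1 and 48.1 FPKM and then 61.5 and 67.3 FPKM in WT, and at 38.5 and 39.7 and then 80.9 and 82.3 FPKM in TG (difference 0.65 ± 0.08, adjusted p = 0.002). Tgfbr2, a receptor chain, rose by 0.73 in WT and 1.84 in TG (difference 1.11 ± 0.18, adjusted p = 0.0082). Skil, Smad3, Smurf2, Smad7, Itgae and Tgfb3 were the other members called. The Smad3 call (0.64 ± 0.12, adjusted p = 0.013) was lost without TG 0 nM replicate 2, TG 10 nM replicate 1 or WT 0 nM replicate 1, with adjusted p from 0.052 to 0.055.

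A list of cytokine receptors, of which only some bind cytokines added to the culture, was called in both directions. Among 18 tested, 5 had the higher and 3 the lower TG response, against 4.75% and 2.73% of all tested genes. Il23r, 1 of the 3, reached the FPKM minimum through untreated TG libraries alone, which leaves 5 and 2 without it. Of these calls, 4 of the higher and none of the lower held whichever of the 8 libraries was left out. Ifngr1, a chain of the receptor for interferon-γ, which was blocked in every culture, rose in WT from 15 and 14.2 to 36.3 and 36.9 FPKM and in TG from 13.6 and 12 to 79 and 67.4 FPKM (difference 1.15 ± 0.14, adjusted p = 0.0019). Tnfrsf1b, a TNF receptor, was 37.5 and 38.4 FPKM in treated WT and 60.0 and 58.4 FPKM in treated TG cells (difference 0.73 ± 0.08, adjusted p = 0.0016). Il21r rose by 0.52 in WT and 1.14 in TG (difference 0.62 ± 0.10, adjusted p = 0.0085) from a lower untreated level in TG.

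Th2 and Th9 genes numbered 9, with a median difference of -0.47. The response was lower in 3 and higher in none, against 2.73% and 4.75% of all tested genes. Areg, 1 of the 3, reached the FPKM minimum through untreated TG libraries alone. The repressor Nfil3 was 14.8 and 14.8 FPKM and then 7.3 and 8.21 FPKM in WT, and 23.2 and 29.7 and then 5.91 and 5.77 FPKM in TG (difference -1.14 ± 0.14, adjusted p = 0.0026). Crem, a cAMP-responsive factor, had a difference of -1.28 ± 0.14 (adjusted p = 0.0011), above WT without RA and below it with RA. Il9 fell strongly in both genotypes, from 201 and 322 to 9.35 and 15.5 FPKM in WT and from 447 and 849 to 4.33 and 10.1 FPKM in TG, and its difference of -2.04 ± 0.63 was not called (adjusted p = 0.096). Il10 also fell in both, by -2.28 and -2.82 (difference -0.53 ± 0.33, adjusted p = 0.41). Il9 was called with either replicate block and with a sex term, and Il10 with a pseudocount of 0.1.

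Th1 and cytotoxic genes split evenly by calls, with 3 of 19 higher and 3 lower and a median difference of -0.003. None of the higher and 2 of the lower calls held whichever of the 8 libraries was left out. Over all tested genes 4.75% were higher and 2.73% lower. Il12rb2, a chain of the IL-12 receptor, was 9.35 and 6.87 FPKM in untreated TG and 2.72 and 2.16 FPKM in untreated WT cells, and levels with RA overlapped (difference -1.48 ± 0.24, adjusted p = 0.0079). Runx3 had a difference of -0.83 ± 0.14 (adjusted p = 0.0087). Tbx21, the Th1 master factor, was 17 and 14.7 FPKM in treated TG and 5.33 and 8.69 FPKM in treated WT cells (difference 1.88 ± 0.41, adjusted p = 0.028). This call was lost without any of 6 of the 8 libraries, with adjusted p from 0.071 to 0.098, and held without WT 0 nM replicate 1 or WT 10 nM replicate 2. Ifng had a difference of -0.14 ± 0.50 (adjusted p = 0.92).

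T-cell receptor signalling genes were called in 6 of 39 with the higher and 2 with the lower response, against 4.75% and 2.73% of all tested genes. Of these calls, 3 of the higher and none of the lower held whichever of the 8 libraries was left out. Themis, a regulator of T-cell receptor signalling, was 7.62 and 6.67 FPKM in treated WT and 14.2 and 14 FPKM in treated TG cells (difference 1.00 ± 0.11, adjusted p = 0.0013). Jun, an AP-1 subunit, had a difference of 1.04 ± 0.12 (adjusted p = 0.0013), at the treated end only. Glycolysis and hypoxia genes had the lower response in 5 of 21 and the higher in none, against 2.73% and 4.75% of all tested genes. Pkm, a pyruvate kinase, was 212 and 208 FPKM in treated TG and 237 and 251 FPKM in treated WT cells (difference -0.38 ± 0.07, adjusted p = 0.014), and its call was lost without TG 0 nM replicate 2, TG 10 nM replicate 2 or WT 0 nM replicate 2, with adjusted p up to 0.057. Tpi1, Hif1a, Egln3 and Pfkl were the others called. The Tpi1 and Hif1a calls were lost without any of the 8 libraries (adjusted p up to 0.12 and 0.14), that of Egln3 without any of 6 (up to 0.11) and that of Pfkl without any of 7 (up to 0.13). Sterol and fatty acid synthesis genes had the higher response in 4 of 25 and the lower in none, against 4.75% and 2.73% of all tested genes. Sc5d, Fdft1 and Hsd17b7 were among the 4, and none of the 4 calls held in all 8 fits with 1 library left out. In the main limma fit and with voom on recovered reads, none of 25 DNA replication genes and none of 22 mitosis genes was called. At an unadjusted limma p under 0.05 there were 4 and 0. Pold1, a replication gene, was called with either replicate block, and Cdc20, a mitosis gene, with the block within genotype. In the main fit the smallest adjusted p among the named replication and mitosis genes was 0.14, for Mcm2.

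**Figure D5:**
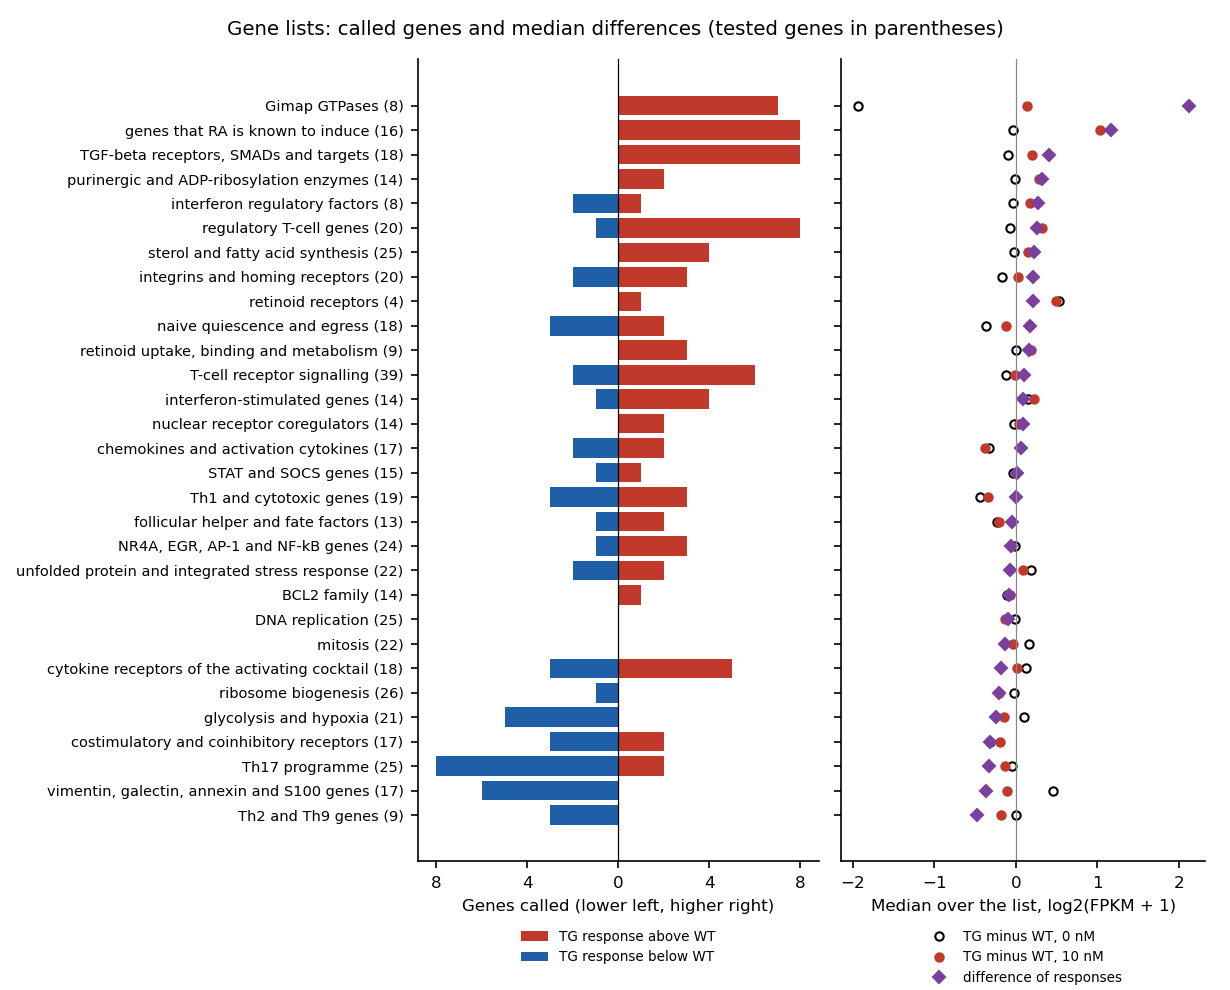
For 30 gene lists, the left panel counts tested genes called with the higher (red) or lower (blue) TG response, and the right panel gives the list's median of TG minus WT at 0 nM (open) and 10 nM (red) and of the difference of responses (diamond), in log2(FPKM + 1). The Gimap median departs at 0 nM and that of RA-induced genes at 10 nM.

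The libraries labelled KO, all of them female, share no library with the TG minus WT difference and give a separate reading of the same genes. RA changed 17 genes in them (0.143%). Of the 566 genes with the higher TG response, 491 (86.7%) had a positive RA response in libraries labelled KO, against 53% of all tested genes, with a median of 0.15. Of the 326 with the lower response, 220 (67.5%) had a negative one, against 46.8% of all tested genes, with a median of -0.06. These medians lay nearer to 0 than those of the same genes in WT, at 0.33 and -0.12, and in TG, at 1.18 and -0.64. The difference between the responses of KO-labelled and WT cells was called in 1 gene (0.00839%), with sex and the label not separable.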

How the data were processed

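The deposited values are FPKM per gene, made by the authors, in 1 table of 52635 genes and 12 libraries. Per the submitters' processing notes, the tools include DESeq2, HTSeq 0.6.1, STAR and Trimmomatic 0.32 and the builds are mm10 and GRCm38.p5, with no roles stated. Neither the annotation release nor the strand setting was given in the sources used here. Libraries were stranded and read as single reads, per the labels' protocols. FPKM times GENCODE M21 exon length moves in steps of 1 read, and 95.3 to 95.9% of values up to 20 reads lay within 0.02 of a whole number. Depth was read from these steps and bears on counting error only.

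Genes had to reach an FPKM of 1 in 2 or more libraries, which 11922 did, and each was fitted with limma 3.58.1 in R 4.3.3 on log2(FPKM + 1), pseudocount 1, with 1 mean for each of the 6 groups and eBayes with a trend (6 residual and 2.51 prior degrees of freedom). Tests were two-sided and Benjamini-Hochberg adjusted over all tested genes within a comparison, with calls at an adjusted p under 0.05, and ± is the standard error. Fold changes on this scale understate those of low genes. A gene whose second-highest FPKM is just under 1 was left out, which put 40713 genes outside. The fit was tested on simulated data.

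The labels do not say what a replicate number marks, and the fit has no block. The members and lists were chosen with earlier results of these data known. Named genes were the 10 largest rises and 10 largest falls, the 5 largest of each class and direction with a mean FPKM of at least 2, up to 4 members per list by p, 35 fixed genes, and up to 8 genes with opposite responses. Gimap7 was named after its values were seen. A few genes picked in this way were left out of the text. Alternatives were a pseudocount of 0.1, no filter, no trend, upper-quartile scaling, voom on recovered reads, only 8 libraries, a sex term, replicate blocks, each library left out, classes by size and, chosen after seeing the data, 1 WT replicate alone, no genes passing through 1 group and no X- and Y-linked genes.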

Additional observations from a re-analysis of the deposited data

Results flagged for a closer look

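The difference between the genotypes under the same RA treatment is the subject of the report and was tested directly, with 566 genes above and 326 below. Of these, 5 genes had an RA effect called in WT and in TG with opposite signs (limma, all 5 called on the difference). Rara had a difference of 1.24. Cep83, a centriole protein, was 20.3 and 21 and then 18 and 17.1 FPKM in WT, and 18 and 18.9 and then 20.4 and 20.8 in TG, a difference of 0.37; the call was lost without TG 10 nM replicate 2 or WT 0 nM replicate 2, with adjusted p up to 0.055. Tmem219 was 6.52 and 6.87 and then 8.51 and 7.95 FPKM in WT, and 8.47 and 8.78 and then 7.82 and 7.11 in TG, a difference of -0.45; the call was lost without any of 5 libraries, with adjusted p up to 0.077 (both WT 0 nM, TG 0 nM replicate 2, TG 10 nM replicate 2 and WT 10 nM replicate 1). The other two are microRNA loci with few reads: Mir7001 had a difference of 2.09 with at most 4 reads in any of the 8 libraries, and Mir7069 one of -2.56 with at most 2. At such depth their direction is not firm.

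Outside the WT and TG libraries, the response of cells labelled KO differed from that of WT in 1 gene, the pseudogene Rbpsuh-ps1. It was 4.96 and 4.3 FPKM in libraries labelled KO with RA, listed at 0 in those without RA, 0.044 and 0 FPKM in untreated WT and listed at 0 in treated WT libraries. This gene was named after its values were seen.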

How the results depend on the processing

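All 892 genes kept their sign under every alternative that tested them, while the number called varied. With TG replicate 1 alone, 193 genes were called higher and 45 lower, TG differed from WT in 78 genes without RA and 513 with RA, RA changed 787 genes in WT and 2311 in TG, and the classes held 169 (treated level only), 30 (untreated only), 10 (opposite ends), 2 (same side) and 27 (neither). With WT replicate 1 alone, an alternative chosen after seeing the data, these counts were 223 higher, 68 lower, 114 without RA, 601 with RA and 223 for RA in WT, with classes of 191, 49, 13, 1 and 37. Both leave an arm with 1 library, whose spread is taken to be that of the other groups.

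Leaving out each library in turn gave 342 to 472 higher and 126 to 257 lower calls, 131 to 481 genes for TG minus WT without RA, 626 to 1309 with RA, 342 to 1171 for RA in WT and 3233 to 4688 for RA in TG. Treated-only genes were then 275 to 437, untreated-only 51 to 134, opposite ends 27 to 62, same side 3 to 8 and neither 49 to 127. The replicate number as a block gave 507 lower calls, 823 genes for TG minus WT without RA, and 227 untreated-only, 156 opposite-end and 27 same-side genes. The block within genotype gave 797 higher and 521 lower calls, 1762 genes for RA in WT and 5377 for RA in TG, and the other counts were not run under it. Differences between replicates correlated across doses within a genotype (r of 0.147 to 0.327) and between WT and TG (r of 0.0035 to 0.163), so the data alone do not settle what the numbers pair. A sex term gave 200 genes for TG minus WT without RA, 76 untreated-only, 37 opposite-end and 193 neither. Classes by size were 335 treated, 425 both ends and 37 same side. Without a filter 49 genes were at opposite ends, and with only the 8 WT and TG libraries 79 were at neither. The causes were not tested.

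Of 128 named genes called, 36 stayed past the threshold in every alternative that tested them. Ifng, not called, ranged from -0.66 to 0.38 when a library was left out (-0.14 with all), and was positive, at 0.26 and 0.38, when WT 0 nM replicate 1 or WT 10 nM replicate 2 was missing. Voom on recovered reads, with 550 higher and 336 lower, did not call Hrh3, Ccr9, Dhrs3, Cyp26b1 or Gcnt4 (adjusted p = 0.34, 0.22, 0.32, 0.087 and 0.10), and the cause was not tested. Depth limits folds such as that of Cyp26b1, with at most 5 reads in each WT and untreated TG library.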

Other observations

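Other lists held few called genes or moved in both directions. Follicular helper and fate factors had 2 of 13 tested genes with the higher TG response, Cxcr5 and Sh2d1a, and 1 with the lower, Icos. Cxcr5, the receptor that guides cells to B-cell follicles, was at 14 and 16.4 FPKM and then 30.1 and 33.8 FPKM with RA in WT, and at 11.7 and 9.72 and then 46.1 and 42.8 FPKM in TG. TG libraries were the lowest without RA and the highest with it, although neither end was called alone (difference 0.93 ± 0.21, adjusted p = 0.032). The Cxcr5 call held without TG 0 nM replicate 1 and was lost without any of the other 7 libraries, with adjusted p up to 0.11. Integrins and homing receptors had 3 of 20 higher (Itgb2, Itgae and Ccr9) and 2 lower, with Cxcr6 among them.

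Interferon-stimulated genes had 4 of 14 higher and 1 lower. Usp18, a deconjugating enzyme that restrains interferon signalling, was 1.37 and 1.32 FPKM in treated WT and 5.74 and 4.82 FPKM in treated TG cells (difference 1.28 ± 0.24, adjusted p = 0.014), a call lost without TG 10 nM replicate 1 or WT 0 nM replicate 1 (adjusted p up to 0.062). Costimulatory and coinhibitory receptors had 2 of 17 higher and 3 lower, NR4A, EGR, AP-1 and NF-kB genes 3 of 24 and 1, genes of naive quiescence and egress 2 of 18 and 3, and chemokines and activation cytokines 2 of 17 and 2. Tnfsf11 (RANKL) was 6.69 and 8.87 FPKM in treated WT and 15.6 and 14.9 FPKM in treated TG cells (difference 1.21 ± 0.22, adjusted p = 0.014), a call lost without TG 10 nM replicate 1 or WT 0 nM replicate 2 (adjusted p up to 0.060). Stress response genes had 2 of 22 higher and 2 lower, STAT and SOCS genes 1 of 15 and 1, and ribosome biogenesis genes 0 of 26 and 1, Rrp12. Nuclear receptor coregulators had 2 of 14 higher (Nrip1 and Ncoa7), purinergic and ADP-ribosylation enzymes 2 of 14 (Parp9 and Bst1) and the BCL2 family 1 of 14 (Bak1), and none of these lists had a lower call. Over all tested genes the shares were 4.75% higher and 2.73% lower. Without genes that reached the FPKM minimum through 1 group alone, Bst1 and Cxcl10 among them, the counts were 3 and 1 for integrins and homing receptors, 2 and 1 for chemokines and activation cytokines and 1 and 0 for purinergic enzymes. None of the calls in the coregulator, purinergic, BCL2, STAT and SOCS, quiescence and ribosome biogenesis lists held in all 8 fits with 1 library left out.

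Untreated levels in libraries labelled KO lay on either side of WT in genes whose untreated TG level parted. Izumo1r was 39.4 and 39.9 FPKM in them, 23.6 and 23.3 in WT and 2.27 and 1.55 in TG. Foxp3 was 22.6 and 30.6, 9.95 and 12.3 and 3.66 and 4.29 FPKM in the same order, and Gimap3 108 and 82.4, 61.2 and 53.3 and 8.53 and 6.12 FPKM. Vim ran the other way, with 33.6 and 57.3, 68.9 and 99 and 224 and 303 FPKM. Lgals3 was on the same side of WT in both, with 8.27 and 9.3, 1.86 and 1.43 and 8.15 and 9.21 FPKM. Both comparisons share the WT libraries, and the libraries labelled KO were female and WT libraries male, so these are values side by side and no test was made.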
